A study of Mus musculus with 8 samples.

Results

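Tbx19, Pitx1, Neurod1 and Rxra encode transcription factors chosen here as drivers of Pomc in corticotropes, the pituitary cells that make ACTH. Their action on Pomc was not tested in these data. They were taken by gene symbol, and all 4 were found among 12193 gene loci with FPKM values, which count fragments relative to gene length and library total. The cells were AtT-20, a mouse corticotrope tumour line, and the series' title places EGF upstream of Pomc through STAT3. The groups were a control line with genotype Neo given water, a line with genotype EGFR given water, and the EGFR line given EGF, harvested after 3 h in 1 group and after 18 h in another. Each of the 4 groups had 2 libraries. Both lines derive from AtT-20 and grew in DMEM with serum, and both sets of water libraries are titled 3 h. No Neo library received EGF, and no water library is titled 18 h, so EGF and time in culture cannot be told apart at 18 h. Whether each line is 1 clone or a pool, and whether replicates are separate cultures, is not in the labels. All p-values therefore measure the spread between these libraries, which may be technical. Libraries are named by line or treatment and replicate number, with water meaning the EGFR line.

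Pomc is the precursor gene of ACTH, and its transcription in the pituitary rests on several factors that bind its promoter together. TPIT, the product of Tbx19, is a T-box factor found almost only in the cells that express Pomc, and it acts with the homeodomain factor PITX1, which most pituitary lineages contain. NEUROD1 is a basic helix-loop-helix factor that binds E-boxes with an E protein as partner and marks corticotropes early in development. RXRA, the retinoid X receptor alpha, binds DNA with other nuclear receptors, among them the receptor NURR1 encoded by Nr4a2, and with receptors for retinoic acid, thyroid hormone and oxysterols.

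Part of the Pomc promoter is shown because these factors act on Pomc, and part of the Tbx19 promoter because Tbx19 was the member that rose after EGF. Both are the 250 bases before the RefSeq start in GRCm38.p6, the build of the files, at chr12:3954695-3954944 on the plus strand and chr1:165160774-165161023 on the minus strand. Capitals mark matches, on either strand, to the T-box core AGGTGTG, the PITX site TAATCC, the NEUROD E-box CAGATG, the nuclear receptor core AGGTCA or the STAT site TTCNNNGAA.
Pomc: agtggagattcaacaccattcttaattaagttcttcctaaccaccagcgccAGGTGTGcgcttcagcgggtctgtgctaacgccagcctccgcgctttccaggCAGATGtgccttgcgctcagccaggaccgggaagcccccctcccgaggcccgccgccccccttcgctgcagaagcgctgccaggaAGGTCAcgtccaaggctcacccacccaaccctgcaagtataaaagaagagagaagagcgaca
Tbx19: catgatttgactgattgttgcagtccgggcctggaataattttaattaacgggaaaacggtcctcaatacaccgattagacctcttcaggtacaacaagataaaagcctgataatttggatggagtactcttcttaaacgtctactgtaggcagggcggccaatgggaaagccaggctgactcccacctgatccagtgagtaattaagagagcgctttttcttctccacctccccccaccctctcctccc
The Pomc stretch held a T-box core 199 to 193 bases before the start, an E-box 147 to 142 bases before it and a nuclear receptor core 62 to 57 bases before it, none of which overlap. The Pomc stretch held no PITX site and no STAT site, and the Tbx19 stretch held no match to any of the sites. Bases further upstream were not searched, so sites there are unknown. Whether any factor binds the marked letters was not tested. Among 32851 windows of 250 bases in the RefSeq table, 5.10% held the T-box core, 6.25% the PITX site, 14.4% the E-box, 14.0% the nuclear receptor core and 7.02% the STAT site. Of the other members, Neurod1 had 1 window, with no match in its 250 bases, of which 115 lay inside the annotated gene. The promoter of Pitx1 was not analysed here. Rxra had 2 windows, both inside its annotated locus, which begins at 27676440 on chromosome 2. The one at the start at 27677201 held an E-box 235 to 230 bases before it. The one at 27709292 held nuclear receptor cores 87 to 82 and 48 to 43 bases before it.

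Egfr separated the lines as labelled, at 0.227 and 0.0663 FPKM in Neo 1 and 2 and between 25.9 and 31.9 FPKM in the 6 EGFR libraries. Depth, estimated from the FPKM of a single fragment in genes with 1 transcript, was about 55.5 to 65.5 M per library in fragments, an estimate bounded by the range of steps searched. At that depth Tbx19 rested on about 16366 to 23283 fragments per library and the other members on about 1591 to 3685, so counting alone gives an error of 0.655 to 0.782% for Tbx19 and of 1.65 to 2.51% for the others. The share of summed FPKM in small RNA genes was 39.0% for Neo 1, 33.2% for Neo 2 and 29.1 to 32.8% among EGFR libraries. Of 7 corticotrope markers, Pomc, Tbx19, Pitx1, Neurod1 and Pcsk1 had values, and Crhr1 and Avpr1b were not analysed here. Of 22 markers of other pituitary, fibroblast, endothelial and blood cells, 0 had values, so their levels are unknown rather than 0. Sox2, a pituitary stem cell marker also listed among the lineage factors, had group means of 3.54 to 4.61 FPKM.

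Tbx19 (ENSMUSG00000026572) spans 165137855 to 165160773 on the minus strand of chromosome 1 in mm10. Pitx1 (ENSMUSG00000021506) spans 55825051 to 55836192 on the minus strand of chromosome 13, and Neurod1 (ENSMUSG00000034701) spans 79452521 to 79456751 on the minus strand of chromosome 2. Rxra (ENSMUSG00000015846) spans 27676440 to 27762957 on the plus strand of chromosome 2. All 4 are protein-coding, and a value is given per locus, not per transcript. Neurod1 shares 201 exon bases (7.37% of its exon bases) with Cerkl on the same strand, whose FPKM was 6.02 to 8.69, and 154 with the antisense Gm26755. Pitx1 shares 165 exon bases with the antisense Gm47071 and 108 with Gm28760. The counting is not stated to use strand, so these small parts of both genes are uncertain in source. Cerkl itself was not called in any comparison (adjusted p = 0.128 to 0.923). Gm16550, a processed pseudogene on the same strand, overlaps the Tbx19 locus but shares 0 exon bases with it. Its FPKM was 36.3 to 54.5, and it was not called in any comparison (limma adjusted p = 0.572 to 0.976).

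Tbx19 stood far above the other members. In FPKM, which is per length and so comparable between genes, Tbx19 averaged 94.4 over the 8 libraries, Neurod1 11.7, Pitx1 11.1 and Rxra 9.52. Tbx19 was the highest of the 4 in 8 of 8 libraries, by 6.59 to 10.3 times over the next member, and Rxra was the lowest in 8 of 8. Neurod1 and Pitx1 were neighbours in this order, with Pitx1 above Neurod1 in 1 of 8 libraries, and the difference between these genes was not tested. Of the genes tested, 89.8% had a lower mean than Tbx19, 36.7% than Neurod1, 35.0% than Pitx1 and 30.2% than Rxra. Pomc itself lay at 7993 FPKM, above 99.9% of genes tested. The plot of levels by library shows these values.

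**Figure D1:**
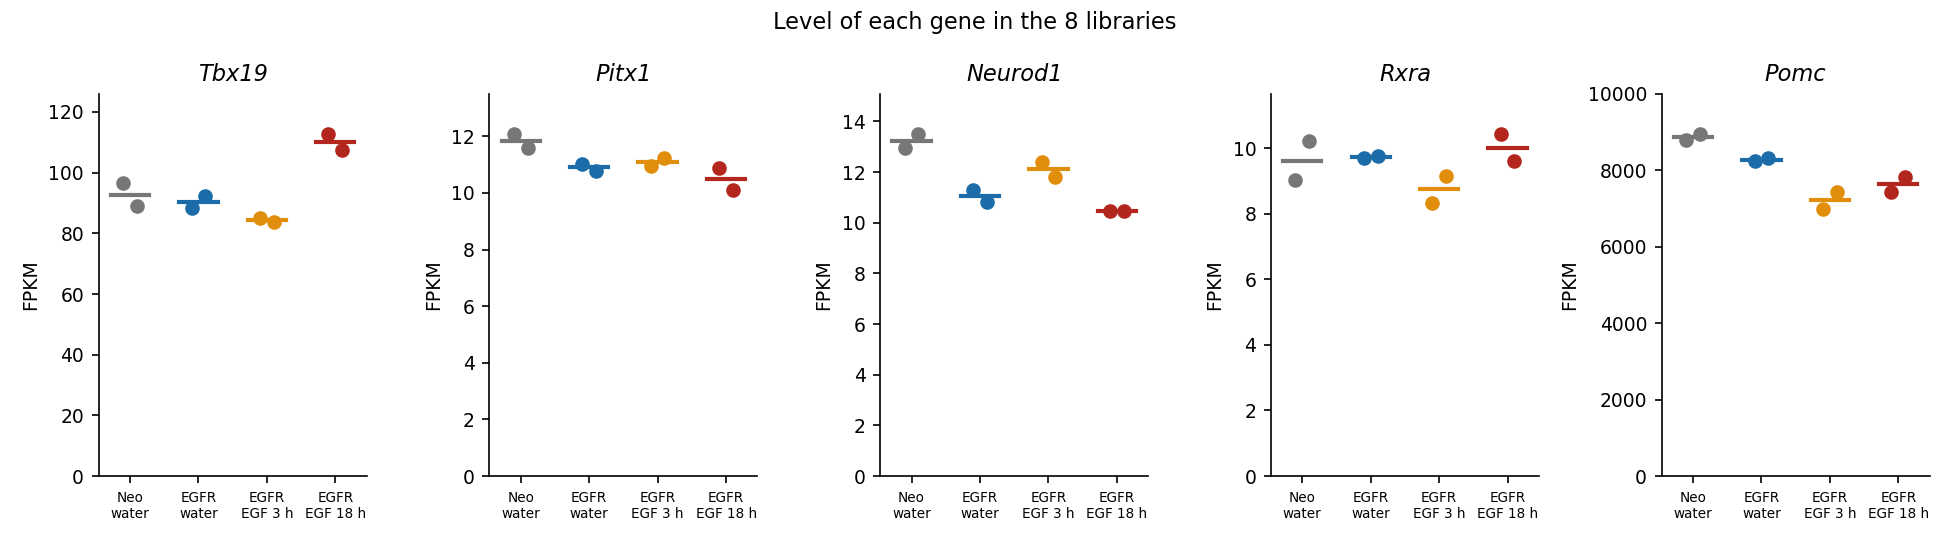
FPKM of Tbx19, Pitx1, Neurod1, Rxra and Pomc (vertical axis, from 0, a scale of its own for each gene) in the 4 groups, with 1 point per library and a line at the group mean. The 18 h EGF libraries of Tbx19 (107 and 113) lie above all others, the Neo libraries of Neurod1 (12.9 and 13.5) lie above the 6 EGFR libraries, and Pitx1 and Rxra vary within 10.1 to 12.1 and 8.34 to 10.4.

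Each comparison was tested by limma-trend on log2(FPKM + 1) over all 10874 genes that passed a filter on low values, which all 4 members did in every library. A gene was called at a Benjamini-Hochberg adjusted p below 0.05, and every fold change is a difference of log2(FPKM + 1). Across the 4 groups as a whole, Tbx19 (adjusted p = 0.00328) and Neurod1 (adjusted p = 0.00377) differed by limma's F test. Pitx1 (adjusted p = 0.0801) and Rxra (adjusted p = 0.182) did not pass it. Among all genes tested 53.8% passed, so 2 of 4 members is close to the background.

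Tbx19, the corticotrope-restricted member, rose late after EGF and did not rise early. It stood at 96.7 and 88.9 FPKM in Neo 1 and 2, at 88.4 and 92.4 in water 1 and 2, at 84.9 and 83.8 in 3 h EGF 1 and 2 and at 113 and 107 in 18 h EGF 1 and 2. Both 18 h libraries were above all other libraries, both 3 h libraries were below all others, and Neo and EGFR water overlapped.

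At 18 h Tbx19 averaged 109.95 ± 3.73 FPKM against 90.4 ± 2.82 in water (SD, n = 2), which is 1.22-fold. The log2 fold change was 0.28 with a standard error of 0.0481 and a 95% interval from 0.17 to 0.39 (limma adjusted p = 0.00482). Against 3 h of EGF (84.4 ± 0.823 FPKM), Tbx19 was 1.30-fold higher at 18 h, with a log2 fold change of 0.38, an interval from 0.27 to 0.49 and an adjusted p of 0.00194 by limma. At 3 h its log2 fold change against water was −0.10, with an interval from −0.21 to 0.02 (limma adjusted p = 0.156). Between the lines in water it was −0.04, from −0.15 to 0.08 (limma adjusted p = 0.670). Both calls of Tbx19 were kept under every alternative setting tried, with an adjusted p of at most 0.0398 against water and 0.0162 against 3 h.

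Neurod1, the helix-loop-helix member, was lower in the EGFR line than in the Neo line and lower at 18 h than at 3 h of EGF. Its FPKM was 12.9 and 13.5 in Neo 1 and 2, 11.3 and 10.8 in water 1 and 2, 12.4 and 11.8 in 3 h EGF 1 and 2 and 10.46 and 10.48 in 18 h EGF 1 and 2. The 3 h libraries lay between the Neo and the water libraries, and the 18 h libraries lay below all others. None of the groups overlapped. In cultures measured in bulk, fewer cells that express a gene and less RNA per cell cannot be told apart.

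The EGFR line held 11.1 ± 0.347 FPKM of Neurod1 in water, against 13.2 ± 0.385 in the Neo line (SD, n = 2), or 0.837-fold. The log2 fold change was −0.24 with a standard error of 0.0421 and an interval from −0.34 to −0.14 (limma adjusted p = 0.0256). The Neo libraries also had the larger small RNA share given above, whose part in this difference was not tested. The call was lost after rescaling to a common sum of FPKM (adjusted p = 0.162), with only the 2 groups fitted (adjusted p = 0.0730) and when any single Neo, water or 18 h EGF library was left out (adjusted p = 0.0511 to 0.154). The log2 fold change stayed between −0.27 and −0.16 under all settings.

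From 3 h to 18 h of EGF, Neurod1 fell from 12.1 ± 0.420 to 10.47 ± 0.0120 FPKM, with a log2 fold change of −0.19 and an interval from −0.29 to −0.09 (limma adjusted p = 0.0130). This call was lost when 3 h EGF 1 or either of the 18 h libraries was left out (adjusted p = 0.0605 to 0.0662), with a log2 fold change between −0.24 and −0.16 under all settings. Against water, Neurod1 had a log2 fold change of 0.12 at 3 h, from 0.02 to 0.22 (limma adjusted p = 0.0642), and of −0.07 at 18 h, from −0.17 to 0.03 (limma adjusted p = 0.231). The 3 h value passed only after median-ratio rescaling (log2 fold change 0.16, adjusted p = 0.0398).

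**Figure D2:**
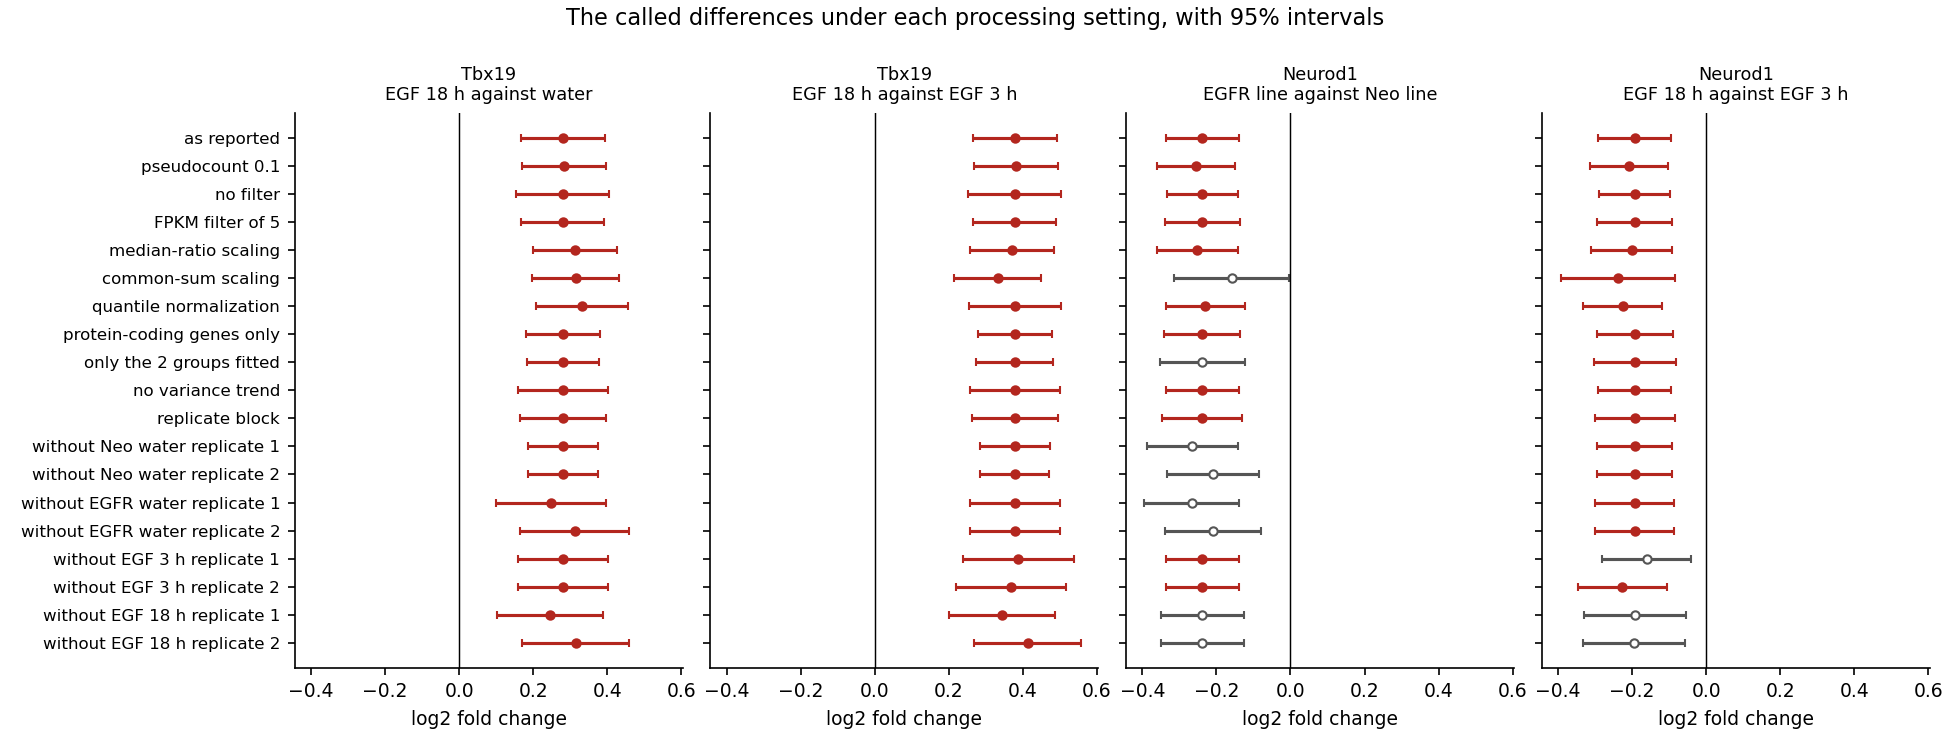
Log2 fold changes (horizontal axis, log2 of FPKM + 1) of the 4 called differences of Tbx19 and Neurod1 with 95% intervals, 1 line per processing setting, filled where the adjusted p is below 0.05. Tbx19 is filled in every line, and Neurod1 is open in several lines, mostly those that leave out 1 library, while its values stay on the same side of 0.

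Pitx1, the homeodomain member, varied least. It stood at 12.1 and 11.6 FPKM in Neo 1 and 2, at 11.01 and 10.8 in water 1 and 2, at 10.9 and 11.2 in 3 h EGF 1 and 2 and at 10.9 and 10.1 in 18 h EGF 1 and 2. Both Neo libraries were above the 6 EGFR libraries, and the 3 EGFR groups overlapped except 3 h with 18 h. Between the lines its log2 fold change was −0.11, from −0.21 to −0.0016, which did not pass after adjustment (limma adjusted p = 0.189). After EGF it was 0.02 at 3 h (from −0.08 to 0.13, limma adjusted p = 0.710) and −0.05 at 18 h (from −0.16 to 0.06, limma adjusted p = 0.431), and 18 h against 3 h gave −0.07 (from −0.18 to 0.03, limma adjusted p = 0.246). Its highest library was 1.19 times its lowest.

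Rxra, the nuclear receptor member, did not pass in any of the 4 comparisons. It stood at 9.03 and 10.2 FPKM in Neo 1 and 2, at 9.69 and 9.77 in water 1 and 2, at 8.34 and 9.15 in 3 h EGF 1 and 2 and at 10.4 and 9.60 in 18 h EGF 1 and 2. The 3 h libraries were below all EGFR libraries of the other groups, but the lower Neo library overlapped them. Its log2 fold change was 0.02 between the lines (from −0.14 to 0.18, limma adjusted p = 0.901), −0.14 at 3 h against water (from −0.30 to 0.02, limma adjusted p = 0.154) and 0.04 at 18 h (from −0.12 to 0.20, limma adjusted p = 0.721). From 3 h to 18 h it was 0.18, from 0.02 to 0.34 (limma adjusted p = 0.0862), which passed with protein-coding genes only (adjusted p = 0.0494).

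The members' calls were read against all genes tested. Between the lines 1 of 4 was called, lower, where 6.01% of all genes were called, 3.11% higher and 2.90% lower. At 3 h against water 0 of 4 were called by limma, with 1 of 4 at an unadjusted p under 0.05, where 31.5% of all genes were called. At 18 h against water 1 of 4 was called, where 31.9% were called. Between 18 h and 3 h 2 of 4 were called, in opposite directions, where 33.7% were called, 17.7% higher and 16.0% lower. The comparison between the lines uses the same EGFR water libraries as the comparisons of EGF with water. The 3 comparisons within the EGFR line also share libraries, so the values of the 4 comparisons are not independent of each other.

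**Figure D3:**
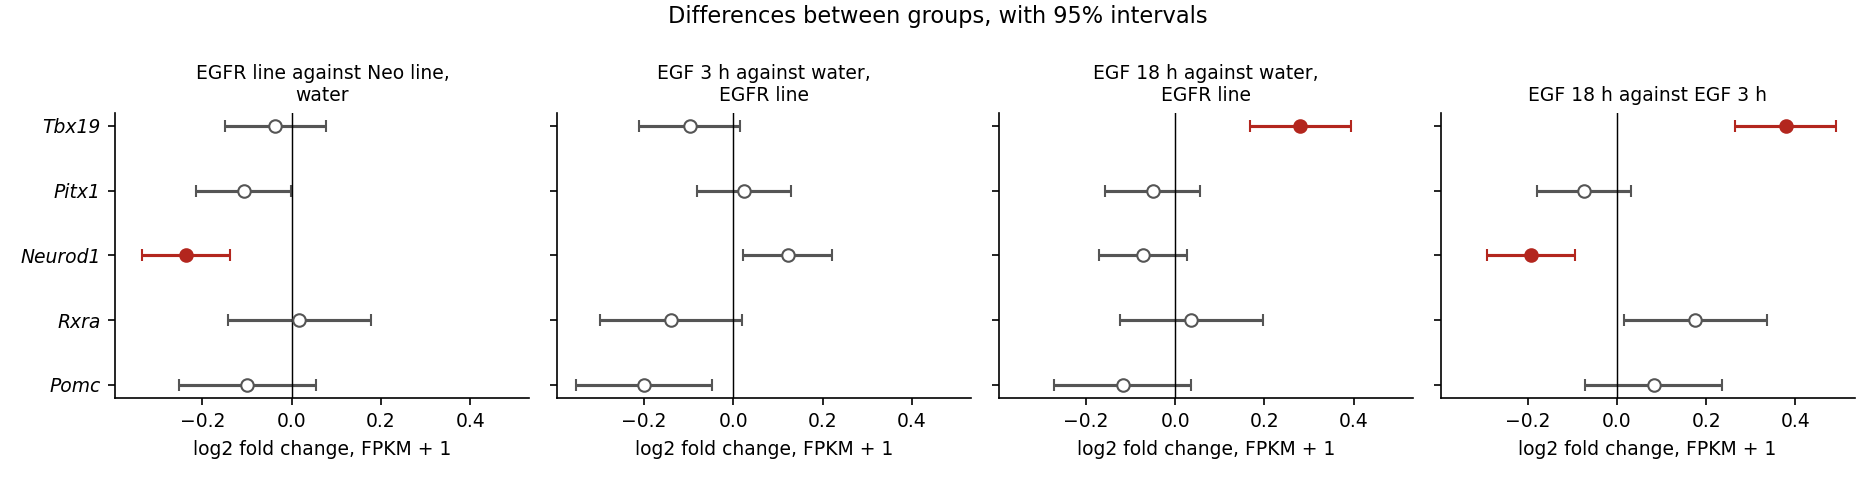
Log2 fold change (horizontal axis, log2 of FPKM + 1) of the 4 members and Pomc in each of the 4 comparisons, with 95% intervals, filled where the limma adjusted p is below 0.05. The filled points are Neurod1 between the lines (−0.24) and between 18 h and 3 h (−0.19), and Tbx19 at 18 h against water (0.28) and against 3 h (0.38).

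Pomc, the gene for which these factors were chosen, did not follow Tbx19. It stood at 8798 and 8929.5 FPKM in Neo 1 and 2, at 8240.3 and 8307 in water 1 and 2, at 6981 and 7430.2 in 3 h EGF 1 and 2 and at 7429 and 7827 in 18 h EGF 1 and 2. The EGF libraries were below the water libraries, but Pomc did not pass at 3 h (log2 fold change −0.20, from −0.35 to −0.05, limma adjusted p = 0.0531) or at 18 h (−0.12, from −0.27 to 0.04, limma adjusted p = 0.207). Across the 4 groups Pomc passed limma's F test (adjusted p = 0.0250). The 3 h value passed with a pseudocount of 0.1, with protein-coding genes only, with no variance trend, with the replicate block and without 3 h EGF 2 (adjusted p = 0.0102 to 0.0449).

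The genes around the 4 factors were described by lists of relatives, partners, targets and coregulators. Of 198 genes listed, 79 had values and 78 were tested. The paralogs with values were Tbx1 and Mga, both T-box genes, and Rxrb, the beta form of the retinoid X receptor. Rxrb fell at 3 h, to 14.8 ± 0.364 FPKM from 18.9 ± 0.0918 in water (log2 fold change −0.33, limma adjusted p = 0.00189), and stood higher again at 18 h than at 3 h (0.31, limma adjusted p = 0.00215). It was called by limma at 3 h where Rxra, with a value of −0.14, was not; the difference between the 2 genes was not tested. Tbx1, at 19.0 to 22.4 FPKM in group means, and Mga, at 35.6 to 39.8, did not pass in any comparison.

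Several partners and inhibitors of helix-loop-helix factors changed after EGF. Of 9 tested, 2 rose and 4 fell at 3 h and 2 rose and 3 fell at 18 h against water, where 11.8% of all genes rose and 19.7% fell at 3 h and 13.2% rose and 18.7% fell at 18 h. Hes1, a repressor downstream of Notch, rose from 2.66 ± 0.367 FPKM in water to 15.5 ± 0.974 at 3 h (log2 fold change 2.18, limma adjusted p = 2.08e-05). At 18 h it was 12.3 ± 0.256 FPKM (1.86, limma adjusted p = 2.25e-05). Hes6, a relative of Hes1 that antagonises it, fell from 83.4 ± 0.0508 to 69.5 ± 0.806 FPKM at 18 h (−0.26, limma adjusted p = 0.00213). Id1, which sequesters E proteins, rose from 151.7 ± 7.89 to 183 ± 1.49 FPKM at 18 h (0.27, limma adjusted p = 0.00567). At 3 h both were called in the same directions (Hes6 −0.27, limma adjusted p = 0.00255, Id1 0.26, limma adjusted p = 0.00857). Tcf4, an E protein, fell at 3 h from 110.5 ± 5.83 to 86.1 ± 4.87 FPKM (−0.36, limma adjusted p = 0.00333) and was lower by less at 18 h (−0.17, limma adjusted p = 0.0431). In the EGFR line in water Hes1 alone of these 9 was called against Neo, and it was lower (−0.58, limma adjusted p = 0.0193).

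Nuclear receptors that can pair with RXR fell at 3 h in 3 of 4 tested, with 0 higher, where 19.7% of all genes fell. At 18 h 0 rose and 1 fell against water, near the 18.7% of all genes that fell, with a median log2 fold change of −0.27 at 3 h against −0.04 over all genes tested and of −0.10 against −0.03 at 18 h. Nr4a2, the receptor NURR1, fell from 18.4 ± 0.624 FPKM in water to 10.8 ± 0.569 at 3 h (log2 fold change −0.73, limma adjusted p = 4.25e-04) and was 12.4 ± 1.04 at 18 h (−0.54, limma adjusted p = 8.64e-04). Thra, a thyroid hormone receptor, fell at 3 h (−0.28, limma adjusted p = 0.0180), as did Nr1h2, an oxysterol receptor (−0.27, limma adjusted p = 0.0247). Rarg, a retinoic acid receptor, was higher at 18 h than at 3 h (0.27, limma adjusted p = 0.0310). Of 6 RXR heterodimer target genes tested, 1 rose at 3 h, and 3 rose and 1 fell at 18 h, where 11.8% of all genes rose at 3 h and 13.2% at 18 h. Their median log2 fold change was 0.07 at 3 h and 0.15 at 18 h. The largest was Tgm2, a transglutaminase, at 14.8 ± 0.182 against 10.99 ± 0.309 FPKM in water (0.40, limma adjusted p = 0.00105). Lpcat3, a lysophospholipid acyltransferase, rose less (0.24, limma adjusted p = 0.00841), and Fabp5, a fatty acid binding protein, fell (−0.19, limma adjusted p = 0.0190).

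Among 21 other regulators of Pomc tested, 4 rose and 6 fell at 3 h and 6 rose and 2 fell at 18 h against water. Of all genes, 31.5% were called at 3 h and 31.9% at 18 h. The list's median log2 fold change was 0.0014 at 3 h and −0.03 at 18 h. Stat3, which the series' title names, was lower in the EGFR line in water than in Neo (28.3 ± 0.368 against 33.7 ± 0.0359 FPKM, −0.24, limma adjusted p = 0.0112). After EGF it was higher than in water at 3 h (0.22, limma adjusted p = 0.00376) and at 18 h (0.13, limma adjusted p = 0.0199). Nr3c1, the glucocorticoid receptor, fell from 42.4 ± 0.225 FPKM to 34.7 ± 0.475 at 3 h (−0.28, limma adjusted p = 9.31e-04) and to 32.8 ± 0.00134 at 18 h (−0.36, limma adjusted p = 1.87e-04). Nfkb1, an NF-kB subunit, rose at 18 h to 32.1 ± 0.242 from 23.2 ± 0.544 FPKM (0.45, limma adjusted p = 2.15e-04). Atf1, a relative of CREB, rose at 3 h (0.39, limma adjusted p = 0.00167), while Jun (−0.32, limma adjusted p = 0.00124) and the orphan receptor Nr2c2 (−0.36, limma adjusted p = 0.00143) fell. Of 17 coregulators tested, 1 rose and 0 fell at 3 h, and 3 rose and 4 fell at 18 h, again beside 31.5% and 31.9% of all genes called. Their median log2 fold change was 0.04 at 3 h and 0.03 at 18 h. Hdac2, a histone deacetylase, fell from 131 ± 3.37 to 115 ± 0.672 FPKM at 18 h (−0.19, limma adjusted p = 0.00386), and Ncoa3, a nuclear receptor coactivator, rose at both times (0.22 with limma adjusted p = 0.0221 at 3 h, 0.26 with 0.0111 at 18 h).

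Pituitary and neuroendocrine lineage factors moved in both directions, with 2 of 8 tested higher and 3 lower at 3 h and 3 higher and 4 lower at 18 h, where 31.5% and 31.9% of all genes were called. Their median log2 fold change was 0.03 at 3 h and −0.18 at 18 h. St18, a zinc finger factor of the Myt family, fell from 40.6 ± 0.352 FPKM to 25.5 ± 0.621 at 3 h and 26.5 ± 0.205 at 18 h (−0.60 at 18 h, limma adjusted p = 3.41e-05). Its relative Myt1 fell less (−0.31 at 3 h, limma adjusted p = 0.00103). Six6, a homeodomain factor of the early pituitary, rose at 18 h (0.25, limma adjusted p = 0.00159), and Insm1, a neuroendocrine zinc finger factor, fell (−0.23, limma adjusted p = 0.00680). Of 10 listed corticotrope products tested, 0 rose and 3 fell at 3 h, and 4 rose and 1 fell at 18 h. The list includes Pomc and the receptor genes Il6st and Lifr, and Lifr was among those that rose (0.14, limma adjusted p = 0.0423). The 3 h count is about the 31.5% of all genes called, and at 18 h 13.2% of all genes rose. The list's median log2 fold change was −0.10 at 3 h and 0.14 at 18 h. Pcsk1, the convertase that cuts the POMC protein, was 395 ± 2.05 FPKM in water, 363 ± 13.5 at 3 h (−0.12, limma adjusted p = 0.0387) and 440.4 ± 3.17 at 18 h (0.16, limma adjusted p = 0.0158), an early fall and late rise. Scg2, secretogranin II, rose at 18 h to 264 ± 1.06 from 121 ± 2.83 FPKM (1.11, limma adjusted p = 4.73e-06), and Chgb, chromogranin B, to 1379 ± 17.0 from 923 ± 0.240 (0.58, limma adjusted p = 1.98e-04).

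**Figure D4:**
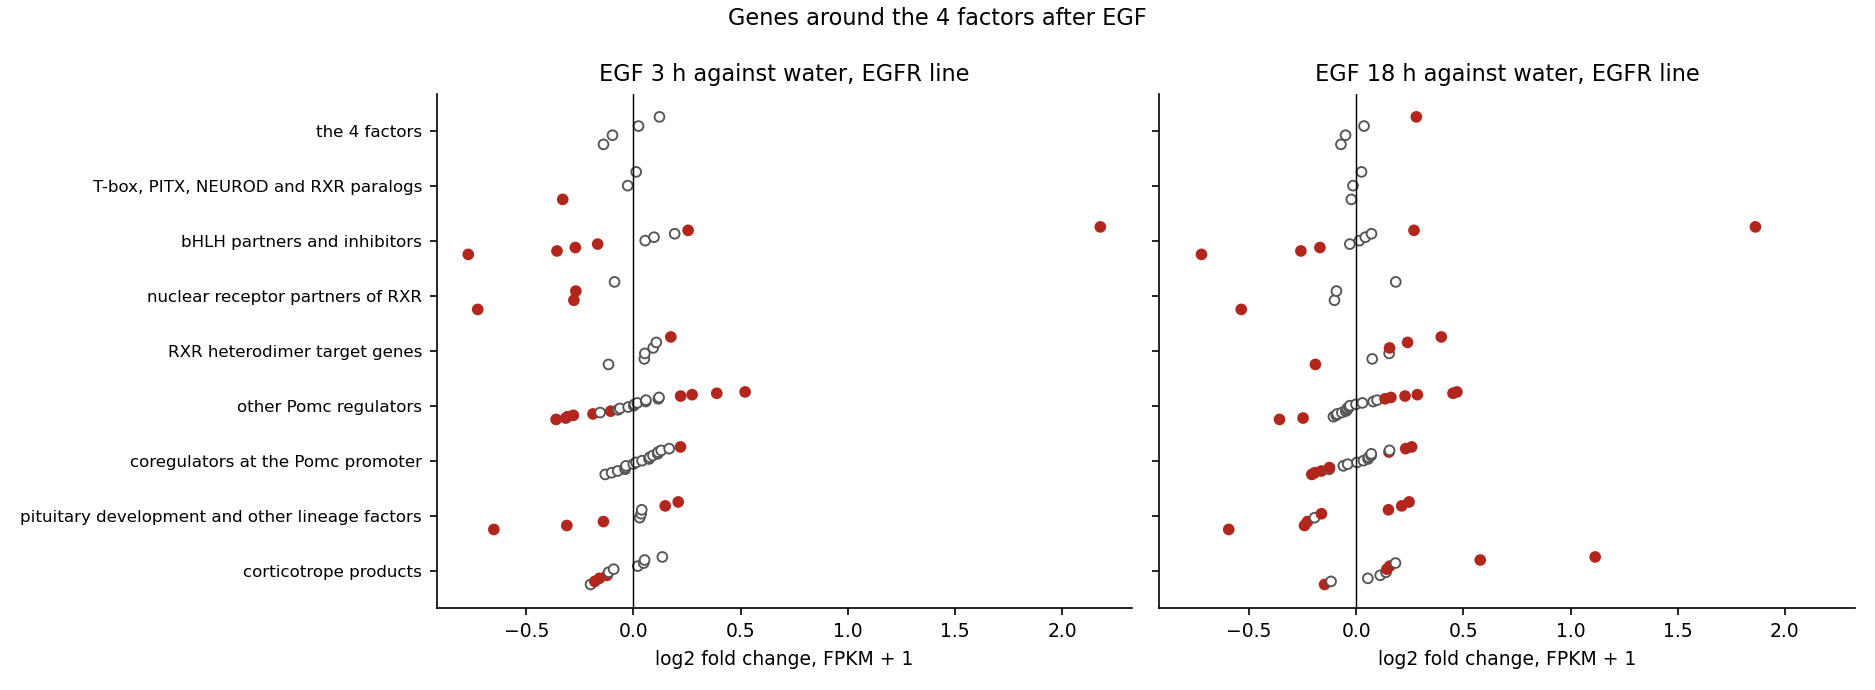
Log2 fold change (horizontal axis, log2 of FPKM + 1) of the 4 factors and of each tested gene of 8 lists at 3 h (left) and 18 h (right) of EGF against water, 1 point per gene, filled where the limma adjusted p is below 0.05. The 4 factors lie within −0.14 to 0.28, while Hes1 reaches 2.18 at 3 h and 1.86 at 18 h and Nr4a2 lies at −0.73 and −0.54; vertical offsets within a list only keep points apart.

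The genes whose levels over the 8 libraries were most like each member were searched among 8008 other protein-coding genes with a mean of at least 5 FPKM. Pearson's r is given as a description, since the libraries share groups and the genes were picked for the highest r among many. Tbx19 was most like Fgfr1, a fibroblast growth factor receptor (r = 0.993), and then Pold4 (r = 0.985), Sdcbp2 (r = 0.983) and Celf3, a neuronal RNA-binding protein (r = 0.982). Fgfr1 had its highest values at 18 h of EGF, as Tbx19 did. Neurod1 was most like the retrotransposon-derived gene Rtl1 (r = 0.981), the RNA helicase gene Ddx17 (r = 0.974), Nampt, which makes NAD precursors (r = 0.973), and Fam91a1 (r = 0.973).

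Pitx1 was most like Isca1, an iron-sulfur cluster assembly gene (r = 0.978), Pdcl (r = 0.960), Ube2v1 (r = 0.956) and Mrpl45, a mitochondrial ribosomal protein gene (r = 0.953). Rxra had the weakest likenesses, with Arhgap12 (r = 0.939), Dnajc18 (r = 0.932), Zfyve21 (r = 0.922) and Sin3a, a corepressor scaffold (r = 0.912). Among the members themselves, r over the 8 libraries was 0.811 for Pitx1 with Neurod1, 0.526 for Tbx19 with Rxra and −0.591 for Tbx19 with Neurod1. With Pomc, r was 0.000504 for Tbx19, 0.491 for Pitx1, 0.389 for Neurod1 and 0.415 for Rxra.

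**Figure D5:**
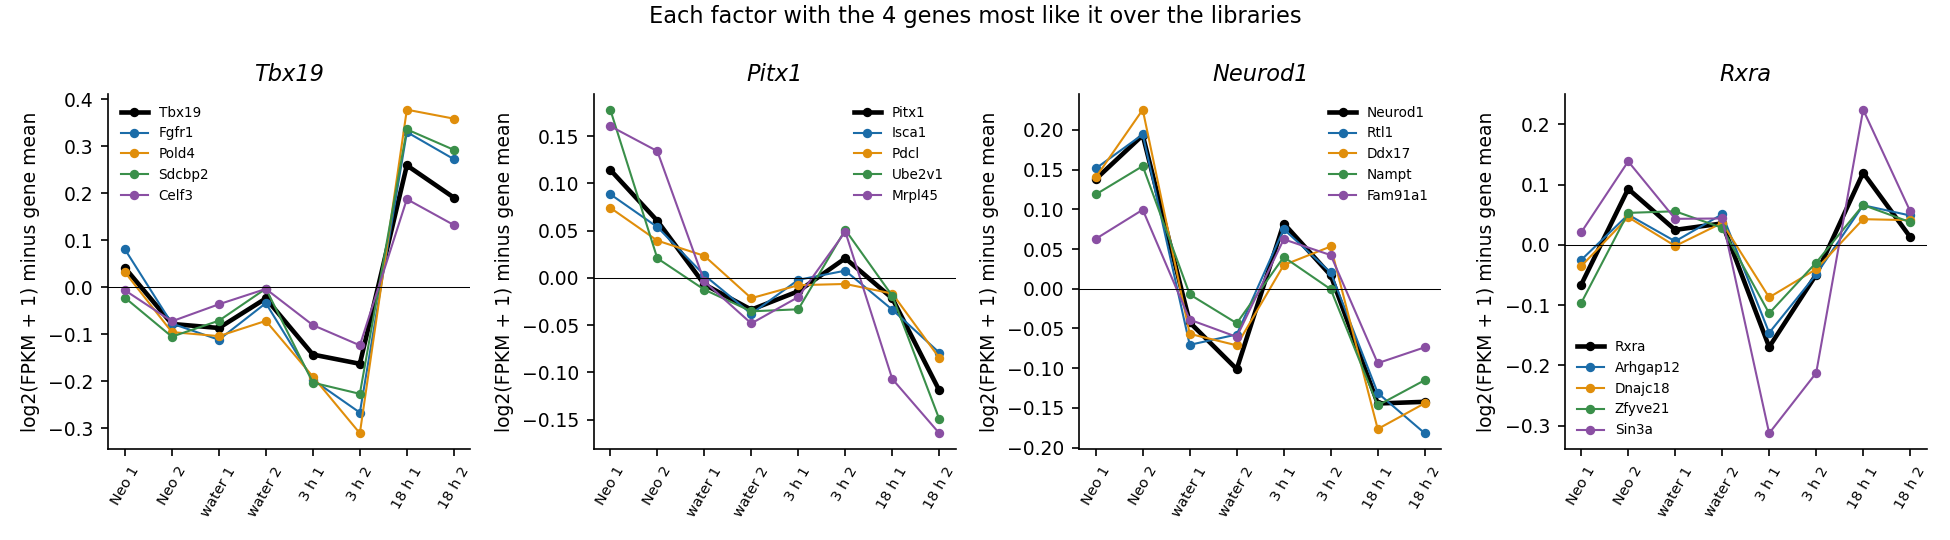
Log2(FPKM + 1) of each member (black) and of the 4 genes most like it, minus the gene's mean over the 8 libraries (vertical axis), for each library (horizontal axis); lines only join the points of a gene. Tbx19 and its 4 genes peak in the 18 h EGF libraries, and Neurod1 and its 4 genes peak in the Neo libraries and are lowest at 18 h.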

How the data were processed

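RNA-seq of 8 libraries, 2 in each of 4 groups, was analysed from the FPKM that the authors deposited for 12193 loci, per the file headers. Per the submitters' processing notes, the build was mm10 and the tools included HTSeq 0.5.4, TopHat2 2.0.8, Trimmomatic 0.22 and DESeq; which program computed FPKM was not stated there. FPKM divides by length and library total, so a change in abundant transcripts moves all others. The 4 members and the gene lists were chosen with earlier results of these data known.

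A gene needed FPKM 1 or more in 2 or more libraries, which left 10874. They were tested with limma 3.58.1 in R 4.3.3, with a variance trend on log2(FPKM + 1), a joint fit of the 4 groups (residual degrees of freedom 4, prior 3.29) and Benjamini-Hochberg adjustment over all genes at 0.05. The fit was tested on simulated data. Named genes were the members, Pomc and Egfr, from each list up to 4 called genes with the smallest adjusted p per comparison (where fewer than 2 were called, the 2 with the highest mean), and the 4 genes with the highest Pearson r to each member among protein-coding genes at a mean of at least 5 FPKM, without clone and pseudogene names. The text gives part of the list genes so chosen. Shared exon bases came from GENCODE M21, and minimap2 2.31 found 1 match of at least 95% identity over at least 200 bases, that of Neurod1 with Cerkl at their shared exon bases. Depth was estimated from 10 to 20 genes per library of 1 transcript and over 1000 exon bases, as the median of FPKM times exon kilobases between 0.010 and 0.022, a range set after the values were seen; it uses full exon length, which overstates it if FPKM used a shorter effective length.

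The fit did not pair libraries by replicate number, and whether same-numbered libraries were handled together is not in the labels. The alternatives tried were scaling by quantiles, by median ratios or to a common sum, a pseudocount of 0.1, a filter at FPKM 5 or none, protein-coding genes only, fitting only the 2 groups compared, dropping the variance trend, a replicate block, leaving out each library, and a threshold of 0.01. Python 3.11.15, pandas 2.3.3, NumPy 2.4.6 and matplotlib 3.10.9 were used.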

Additional observations from a re-analysis of the deposited data

Results flagged for a closer look

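By the limma test of 18 h against 3 h of EGF, the level differed between the times for 2 of the 4 members. It also differed for 20 list genes, which the naming rule picked because they were called, so this count is set by the rule. Of all 78 list genes tested, 18 were called higher and 7 lower at 18 h, where 17.7% and 16.0% of all genes were. Among all genes tested 33.7% were called. The values of both times against water use the same water libraries, which are titled 3 h. No water library is titled 18 h, so a comparison of the times cannot tell EGF from time in culture. The differences below are log2 fold changes of 18 h against 3 h. Tbx19 differed by 0.38 and Neurod1 by −0.19.

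Higher at 18 h than at 3 h were Scg2 by 1.07, Chgb by 0.56, Nfkb1 by 0.43, Nr2c2 by 0.36, Tgm2 by 0.35 and Rxrb by 0.31. So were Pcsk1 by 0.28, Rarg by 0.27, Pam by 0.23, Jun by 0.23, Tcf4 by 0.19, Lpcat3 by 0.19, Id3 by 0.18 and Myt1 by 0.15. Lower at 18 h were Cited2 with −0.34, Hes1 with −0.32, Gata2 with −0.28, Sox2 with −0.23, Atf1 with −0.23 and Hdac2 with −0.19.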

How the results depend on the processing

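Over 20 results on the members, 356 of 376 values under an alternative kept their direction and side of the threshold. Tbx19 between the lines turned direction with common-sum scaling (adjusted p = 0.557) and, at 0.285 to 0.976 over left-out libraries, without Neo 1 (adjusted p = 0.821). Neurod1 lost its call between the lines with common-sum scaling (0.162), with only the 2 groups fitted (0.0730) and at a threshold of 0.01 (0.0256), and its call of 18 h against 3 h at 0.01 (0.0130). Over left-out libraries these 2 adjusted p-values ran from 0.0313 to 0.154 and from 0.0166 to 0.0662. Median-ratio scaling added Neurod1 at 3 h (0.0398), quantile normalization added Pitx1 in the F test (0.0496), and protein-coding genes only added Rxra at 18 h against 3 h (0.0494). Rxra turned direction between the lines without Neo 1 (adjusted p = 0.656, range 0.460 to 0.963) and at 18 h against water without 18 h EGF 1 (adjusted p = 0.912, range 0.476 to 0.912). Pomc turned direction between the lines with quantile normalization (0.569). The causes were not tested. Deviations of same-numbered libraries from their group means had r = −0.172 to 0.310 across genes, which cannot settle whether they were paired. The replicate block changed no member's call (adjusted p of Tbx19 at 18 h against water 0.00820, of Neurod1 between the lines 0.0474).

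Of the 78 list genes, 0 rose and 4 fell between the lines, 10 and 20 at 3 h, and 21 and 16 at 18 h. At 18 h against 3 h 18 rose and 7 fell. Among all genes tested, 3.11% rose and 2.90% fell between the lines, and 11.8% and 19.7% at 3 h. At 18 h 13.2% rose and 18.7% fell, and at 18 h against 3 h 17.7% and 16.0%. Counts over all genes also moved when a library was left out. Common-sum scaling gave 1 higher between the lines, 9 lower at 3 h, 6 lower at 18 h and 9 higher at 18 h against 3 h. Median-ratio scaling gave 16 higher at 3 h, and protein-coding genes only gave 1 higher and 7 lower between the lines. A threshold of 0.01 gave 1 lower between the lines, 6 higher and 13 lower at 3 h, 9 and 9 at 18 h, and 11 and 2 at 18 h against 3 h. Leaving out a library gave 0 higher and 0 to 5 lower between the lines, 6 to 11 and 13 to 19 at 3 h, 9 to 21 and 9 to 17 at 18 h, and 11 to 18 and 3 to 7 at 18 h against 3 h.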

Other observations

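Tbx19 and Neurod1, which act on the same promoter, drew apart at 18 h of EGF. The ratio of their FPKM was 7.47 and 6.59 in Neo 1 and 2, 7.82 and 8.54 in water 1 and 2, 6.84 and 7.09 in 3 h EGF 1 and 2 and 10.8 and 10.2 in 18 h EGF 1 and 2. Both 18 h libraries were above the other 6. The ratio of Pomc to Tbx19 was 91.0 and 100.4 in Neo 1 and 2, 93.3 and 90.0 in water 1 and 2, 82.2 and 88.7 in 3 h EGF 1 and 2 and 66.0 and 72.9 in 18 h EGF 1 and 2, so Pomc was lowest relative to Tbx19 at 18 h. A factor applied to a whole library, as in common-sum and median-ratio scaling, leaves both ratios as they are, whereas quantile normalization does not. These ratios were formed after the values were seen and were not tested.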
